A study of Mus musculus with 37 samples.

Results

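The histone genes are the genes that encode the proteins on which DNA is wound, and they are described here in single mouse oocytes at germinal vesicle (GV), first metaphase (MI) and second metaphase (MII) stages. They were chosen by name among protein-coding genes, from symbols that begin with Hist1h, Hist2h, Hist3h, Hist4h, H2af, H3f3 or H1f, with the oocyte linker gene H1foo included. The rule found 82 of 54752 genes. Of these, 61 are canonical core genes of the Hist clusters (18 for H2A, 18 for H2B, 12 for H3 and 13 for H4). A further 6 are linker genes of the Hist1 cluster, 4 are other linker genes and 11 are variant core genes (9 for H2A and 2 for H3). The classes follow the names alone, so the germ-cell genes Hist1h2aa (H2A) and Hist1h2ba (H2B) are counted as canonical core throughout.

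RNA of 37 single oocytes was sequenced by Smart-seq2, which copies RNA from its poly(A) tail, in batch A with 6 GV and 6 MII oocytes and in batch B with 10 GV and 15 MI oocytes. All oocytes came from C57BL/6 females of 6 to 8 weeks that were primed with 5 IU of PMSG, and the zona and any polar body were removed. The GV groups are oocytes freed by dissection of the ovary at the end of 48 h of priming, and the MI group is such oocytes after 8 h in M16 medium. Females that gave MII oocytes also received 5 IU of hCG 48 h after PMSG, and their ampullae were opened 15 h later, so MI oocytes matured in culture and MII oocytes in the animal. No batch holds both MI and MII, so each was set against GV oocytes of its own batch, and batches were not compared by level.

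Total gene counts, from the deposited RSEM expected counts, had a lowest value of 7509812, a median of 10013962.5 and a highest value of 12648571 per oocyte for GV in batch A. For MII in batch A these were 9930422, 10509080 and 13988336. In batch B they were 7184193, 11548239 and 17724506 for GV. For MI they were 2709247, 12840682 and 19390137. Depth therefore overlapped between the stages of each batch, with the lowest total in an MI oocyte. MI oocytes 4, 8 and 9 stood apart in their HTSeq totals, which were 8658057, 12290988 and 7126122 beside RSEM totals of 13358034, 19390137 and 13460596, and the calls and the median fold change of the members in batch B are also given without them, while most other values of batch B include them. Levels are given as CPM, counts scaled to a common library size of 1000000, with library sizes scaled by TMM within batch. Levels of different histone genes are ranked as TPM, which also divides by transcript length. CPM was used for class sums and their leading genes, for the choice of genes to name and for the most abundant marker.

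Canonical histone genes lie in clusters, mostly lack introns, and in dividing cells are transcribed with DNA replication into messages that end in a stem-loop in place of a poly(A) tail, bound by the protein SLBP. Variant histones such as H2AX, H2A.Z and the H3 proteins of H3f3a and H3f3b come from scattered genes, usually with introns and polyadenylated messages, and are made outside replication too. Oocytes do not replicate DNA during maturation, store histone messages for the embryo, hold SLBP in growing and maturing cells, and use H1foo as their own linker histone.

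The canonical genes lay where their names place them in the GRCm38 build. The Hist1 cluster held 54 members between 21715763 and 23934851 on chromosome 13, and the Hist2 cluster held 10 between 96219865 and 96270132 on chromosome 3. The Hist3 cluster held 2 between 58948920 and 58956830 on chromosome 11, and Hist4h4 stood alone at 136801553 to 136804415 on chromosome 6. The transcript with most counts of a gene, called its leading transcript, had a single exon in 71 of the 82 members, or 86.6%, beside 8.0% of all protein-coding genes. For canonical core genes this share was 93.4%, and for variant core genes it was 45.5%.

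The histone stem-loop motif was searched on the sense strand of GENCODE M21 transcripts. A match lay anywhere in a transcript of 47 members, namely 42 canonical core genes, 4 clustered linker genes and the variant gene H2afx. Over all 21901 protein-coding genes it did so in 70. Within the last 60 bases of the leading transcript a match lay in 17 of 61 canonical core genes, 27.9%, and in 17 of 21901 protein-coding genes, 0.0776%. Every such match among these leading transcripts thus belonged to a canonical histone gene. The letters AATAAA or ATTAAA stood in the last 50 bases of 23.0% of canonical core genes and of 69.8% of all protein-coding genes. TTTTAT or TTTTAAT, the letters of cytoplasmic polyadenylation elements, stood in the last 100 bases of 8.2% of canonical core genes and of 16.2% of all. A match describes the annotated sequence and does not show how a message ended in the oocyte. Leading transcripts had a median length of 524 bases in canonical core genes and of 2424 in all protein-coding genes, and that of Hist1h4k had 312. Where an annotated transcript stops before the end of the message, the absence of a match says nothing about that end. How far this lowers the shares was not tested.

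The matches fell into 9 sequences, and the commonest was found in 26 genes. Stem-loops are shown for the genes that were called in a comparison below and had a match. Hist1h2ba, Hist1h1a and H2afv were called too and had none. A match lay in 5 of 7 members called higher at MII in batch A and in 1 of 2 called lower, beside 31 of the 47 members tested there. The sequences come from GENCODE M21 transcripts, 5′ to 3′ on the sense strand, with the stem-loop in capitals and its flanks in lower case.
Hist2h2aa1: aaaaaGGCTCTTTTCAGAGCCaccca
Hist1h2bj: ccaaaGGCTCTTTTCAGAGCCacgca
Hist1h2bp: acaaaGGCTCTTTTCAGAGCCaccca
Hist3h2ba: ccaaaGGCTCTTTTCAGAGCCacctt
Hist4h4: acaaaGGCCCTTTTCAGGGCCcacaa
Hist1h4c: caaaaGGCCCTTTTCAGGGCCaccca
Hist1h4a: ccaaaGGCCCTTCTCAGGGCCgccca
Hist1h3f: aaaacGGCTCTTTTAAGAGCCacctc
Hist1h2bk: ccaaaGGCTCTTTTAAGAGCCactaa
H2afx: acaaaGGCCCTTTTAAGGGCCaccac

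The genomic places of these stem-loops differ mainly in how much annotated transcript follows. The Hist2h2aa1 stem-loop lies at chr3:96246032-96246047 on the plus strand, with 35 bases after it. That of Hist1h2bj lies at chr13:22043638-22043653 with 23 bases after it, and that of Hist1h2bp at chr13:21787923-21787938 with 38. These transcripts thus end just past the hairpin. In Hist4h4, at chr6:136803998-136804013 on the minus strand, 2445 bases follow, and in H2afx, at chr9:44335240-44335255 on the plus strand, 822 bases follow. Those transcripts run on past the hairpin, and their last 50 bases hold a poly(A) signal.

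Many canonical genes share sequence, which limits how surely reads can be given to one of them. Of the 75-base windows of a canonical core gene, a median of 49.61% occurred in no other gene, and 31 of 61 genes had under 50% such windows. None of the 21 linker and variant genes fell under 50%, and 7.28% of all protein-coding genes did. HTSeq counts had a median ratio to RSEM counts of 1.94 over protein-coding genes and of 1.49 over members with a mean of at least 10 counts. The ratio was under 0.5 in 20 of those 55 members, 36.4%, beside 6.73% of protein-coding genes. Values of single canonical genes with little unique sequence are therefore uncertain.

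Detection differed between members. An RSEM count was present in every one of the 37 oocytes for 36 of 82 members, and 24 had a mean of at least 100 counts. The variant genes H2afb2 and H2afb3 had no RSEM count in any oocyte, and by HTSeq they had a count of 1 in 1 and in 2 oocytes.

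Per length, the linker gene H1foo led all members. It had the highest mean TPM of the members in each group, at 3827 in GV and 3955 in MII of batch A, 2575 in GV of batch B and 1984 in MI. H3f3b, for the replication-independent H3, came next in each group, with means of 777 and 953 in batch A and 1028 and 921 in batch B. The members that followed differed between batches. In batch A they were H3f3a, at 544 in both stages, and Hist2h2aa1, at 225 in GV and 723 in MII. In batch B they were Hist1h4a, at 616 in GV and 363 in MI, and Hist1h4c, at 515 and 336. The order of these H4 genes is that of TPM from RSEM counts and was not that of the counts themselves. In GV of batch B, mean counts of Hist1h4a were 2292 by RSEM and 638 by HTSeq. Those of Hist1h4c were 2967 and 10912. H1foo held 97.7%, 96.6%, 96.4% and 95.9% of linker TPM in GV and MII of batch A and GV and MI of batch B. H3f3a and H3f3b together held 89.8%, 87.6%, 84.0% and 86.3% of H3 TPM in the same order. Linker and H3 TPM, which covers RNA copied from a poly(A) tail, was thus mostly from variant-type genes at each stage. No H2B or H4 member was classed as variant by its name, although Hist1h2ba encodes a germ-cell H2B.

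**Figure D1:**
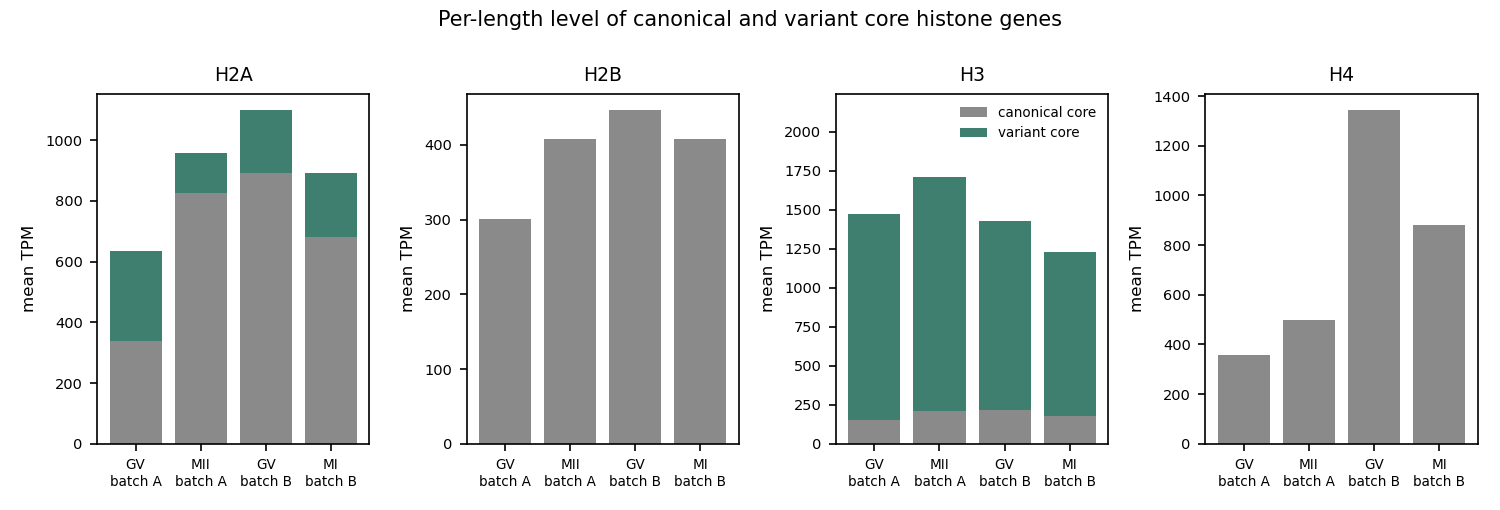
Mean TPM of canonical core genes (grey) and variant core genes (green) in each family and group of oocytes, with TPM on an axis that starts at 0. H3 TPM is mostly variant in each group, and the mean variant share of H2A TPM is 47.7% in GV and 15.0% in MII of batch A, and with the Hist2h2aa copies left out it is 73.1% and 57.6% with overlapping stages, while in batch B it is 19.4% in GV and 24.8% in MI with all genes.

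The comparison of MII with GV in batch A asks which histone messages differ between the start and the end of maturation. The edgeR quasi-likelihood test was run with Benjamini-Hochberg adjustment over all 12929 genes that passed a filter on low counts, and a gene is called where it passed both an adjusted p of 0.05 and a fold of 2. The filter was passed by 47 members, and a gene may pass it through its higher group alone. Called higher at MII were 7 of them, where 2.15% of all genes tested were called higher. That background moves with MII oocyte 1, without which 163 of 13113 genes were called higher in place of 278 of 12929. Called lower were 2, where 6.32% of all genes tested were called lower. The median log2 fold change of these members was 0.35, with 34 positive and 13 negative, beside 0.013 over all genes, and scaled to the ERCC spike-ins, control RNA added to the samples, it turned to −0.41, beside −0.72 over all genes. The p-values measure spread between these oocytes only.

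Of 33 canonical core genes tested, 6 were called higher and 0 lower by edgeR, with 11 under an unadjusted p of 0.05 in either direction, a share near the 4441 of 12929 over all genes, and 0 lower by DESeq2 as well, and their median log2 fold change of 0.55 turned to −0.23 under spike-in scaling. Of 8 variant core genes tested, 0 were called higher and 2 lower, with 3 under an unadjusted p of 0.05, and their median was −0.41, or −1.15 under spike-in scaling. The canonical median was thus above and the variant median below that of all genes on both scales. Among linker genes, 1 of 3 in the Hist1 cluster was called higher and none of 3 others was called, with 1 of the latter under an unadjusted p of 0.05. DESeq2 also called 7 members higher and 2 lower.

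Among the canonical genes called higher, Hist2h2aa1 is an H2A gene of the Hist2 cluster. Its CPM in GV oocytes had a lowest value of 37.3, a median of 58.7 and a highest of 129, and in MII oocytes 116, 260 and 387. Of 6 MII oocytes, 5 were above every GV oocyte, and the groups overlapped only through GV oocyte 4. Its log2 fold change was 1.90 with a standard error of 0.31 and an edgeR adjusted p of 0.00071. Every 75-base window of this gene also occurs in another gene, its HTSeq count was 0 in each oocyte, and so its reads cannot be told from those of its copy Hist2h2aa2 and the overlapping genes Gm20632 and Gm20633. Summed over those 4 genes, mean CPM was 95.1 in GV and 384 in MII of batch A, a log2 ratio of 2.01, with overlapping groups.

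Several H2B genes were called as well. Hist1h2bj had a lowest, median and highest CPM of 4.95, 8.38 and 12.4 in GV and of 12.2, 20.5 and 26.1 in MII. Of 6 MII oocytes, 5 lay above every GV oocyte. Its log2 fold change was 1.26 with a standard error of 0.27 and an edgeR adjusted p of 0.00387. Hist1h2bp had 0.464, 2.33 and 2.97 CPM in GV and 5.03, 8.07 and 11.8 in MII. Every MII oocyte lay above every GV oocyte, where 4.08% of all genes tested were so placed. Its fold change was 1.95 on the log2 scale, with a standard error of 0.37 and an edgeR adjusted p of 0.00179, but the mean count over all oocytes was 46.8 by RSEM and 1.51 by HTSeq, so its call rests on reads that HTSeq mostly did not assign to it. Of its 75-base windows 63.1% are unique, and why the tables differ was not tested.

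Hist1h2ba encodes the H2B of germ cells, first described in testis. Its CPM was 1.78, 3.18 and 5.34 in GV and 3.90, 7.54 and 12.5 in MII. All 6 MII oocytes exceeded the GV median and 4 exceeded every GV oocyte. The log2 fold change was 1.21 with an edgeR adjusted p of 0.0202, and with HTSeq counts it was 0.99 and no longer called. Hist3h2ba had 0.445, 0.608 and 1.3 CPM in GV and 0.355, 1.89 and 3.04 in MII. The lowest MII oocyte was below every GV oocyte while 5 of 6 were above all of them. Its log2 fold change of 1.39 had an edgeR adjusted p of 0.0491, and the call was made in 2 of 12 fits that each left out an oocyte and was lost with HTSeq counts (0.98) and without the filter on low counts (1.37).

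Hist4h4 is the lone H4 gene on chromosome 6, and its transcript has 94.6% unique windows. Its CPM was 2.32, 3.67 and 6.75 in GV and 6.21, 12.2 and 13.2 in MII. MII oocyte 4 was low and lay within the GV range, and the other 5 were above it. On the log2 scale its fold change was 1.54 with a standard error of 0.29 and an edgeR adjusted p of 0.00175. Hist1h3f, an H3 gene, had an adjusted p of 0.0207 by edgeR but a log2 fold change of 0.88, under the threshold. Hist1h2aa, the germ-cell partner of Hist1h2ba in a gene pair of opposite strands, had mean CPM of 12.7 in GV and 13.7 in MII and a log2 fold change of 0.11 that turned to −0.12 with HTSeq counts and −0.67 under spike-in scaling.

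Other canonical genes named by rule were not called. Hist1h4c had 10.7, 47.8 and 87.9 CPM in GV and 34.4, 70.9 and 127 in MII. Hist1h4a had 8.35, 33.5 and 67.8 in GV and 22.5, 66.1 and 104 in MII. For both, the stages overlapped broadly. Their log2 fold changes were 0.72 and 0.86, with edgeR adjusted p of 0.251 and 0.184, and that of Hist1h4c turned to −0.07 under spike-in scaling. The log2 fold changes of the remaining ones were 0.80 for Hist1h2bk, 0.98 for Hist2h3c2, 0.55 for Hist1h3a (−0.29 under spike-in scaling), −0.13 for Hist1h2bc and −0.35 for Hist1h4i.

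In the linker class, Hist1h1a encodes a replication-type H1. Its CPM was 14.7, 21.3 and 31.7 in GV and 35.6, 50.2 and 59.5 in MII. Every MII oocyte was above every GV oocyte. The log2 fold change was 1.15 with a standard error of 0.21 and an edgeR adjusted p of 0.00129, and all of its 75-base windows are unique. H1foo had 1519, 2200 and 2499 CPM in GV and 2245, 2614 and 2985 in MII. The groups overlapped although all 6 MII oocytes exceeded the GV median. Its log2 fold change of 0.28 had an edgeR adjusted p of 0.163 and turned to −0.41 under spike-in scaling. The log2 fold changes of Hist1h1c, Hist1h1d and H1f0 were 0.31, 0.35 and 0.24, none was called, and under spike-in scaling they turned to −0.53, −0.37 and −0.51. H1fx, at −1.13 with an edgeR adjusted p of 0.12, was not called either.

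Among variant genes, H2afx encodes H2AX, which is phosphorylated at DNA breaks. Its CPM was 60.7, 98.3 and 128 in GV and 27.5, 32.6 and 44.8 in MII. Every MII oocyte was below every GV oocyte, where 5.71% of all genes tested were so placed. The log2 fold change was −1.48 with a standard error of 0.19 and an edgeR adjusted p of 6.61e-05. H2afv, for a form of H2A.Z, had 15.4, 23.1 and 46.3 CPM in GV and 8.24, 12.2 and 17.7 in MII. Of 6 MII oocytes, 5 were below every GV oocyte. Its log2 fold change was −1.12 with a standard error of 0.26 and an edgeR adjusted p of 0.00755, and without GV oocyte 4, the highest, it was −0.89 and not called.

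The remaining variant genes were not called. H3f3b had 638, 818 and 1306 CPM in GV and 768, 1204 and 1517 in MII. H3f3a had 257, 344 and 554 in GV and 328, 478 and 625 in MII. Both genes encode the same H3 protein, and for both the stages overlapped. Their log2 fold changes were 0.48 and 0.30, with edgeR adjusted p of 0.106 and 0.355, and turned to −0.21 and −0.43 under spike-in scaling. H2afz, for the other H2A.Z, had 14.1, 27.4 and 56.9 CPM in GV and 12.8, 19.3 and 36.1 in MII. These ranges overlapped, with a log2 fold change of −0.48 and an edgeR adjusted p of 0.347. The macroH2A genes H2afy and H2afy2 had log2 fold changes of −0.35 and −0.94, and H2afj had 0.09, which turned to −0.04 with HTSeq counts and −0.62 under spike-in scaling.

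**Figure D2:**
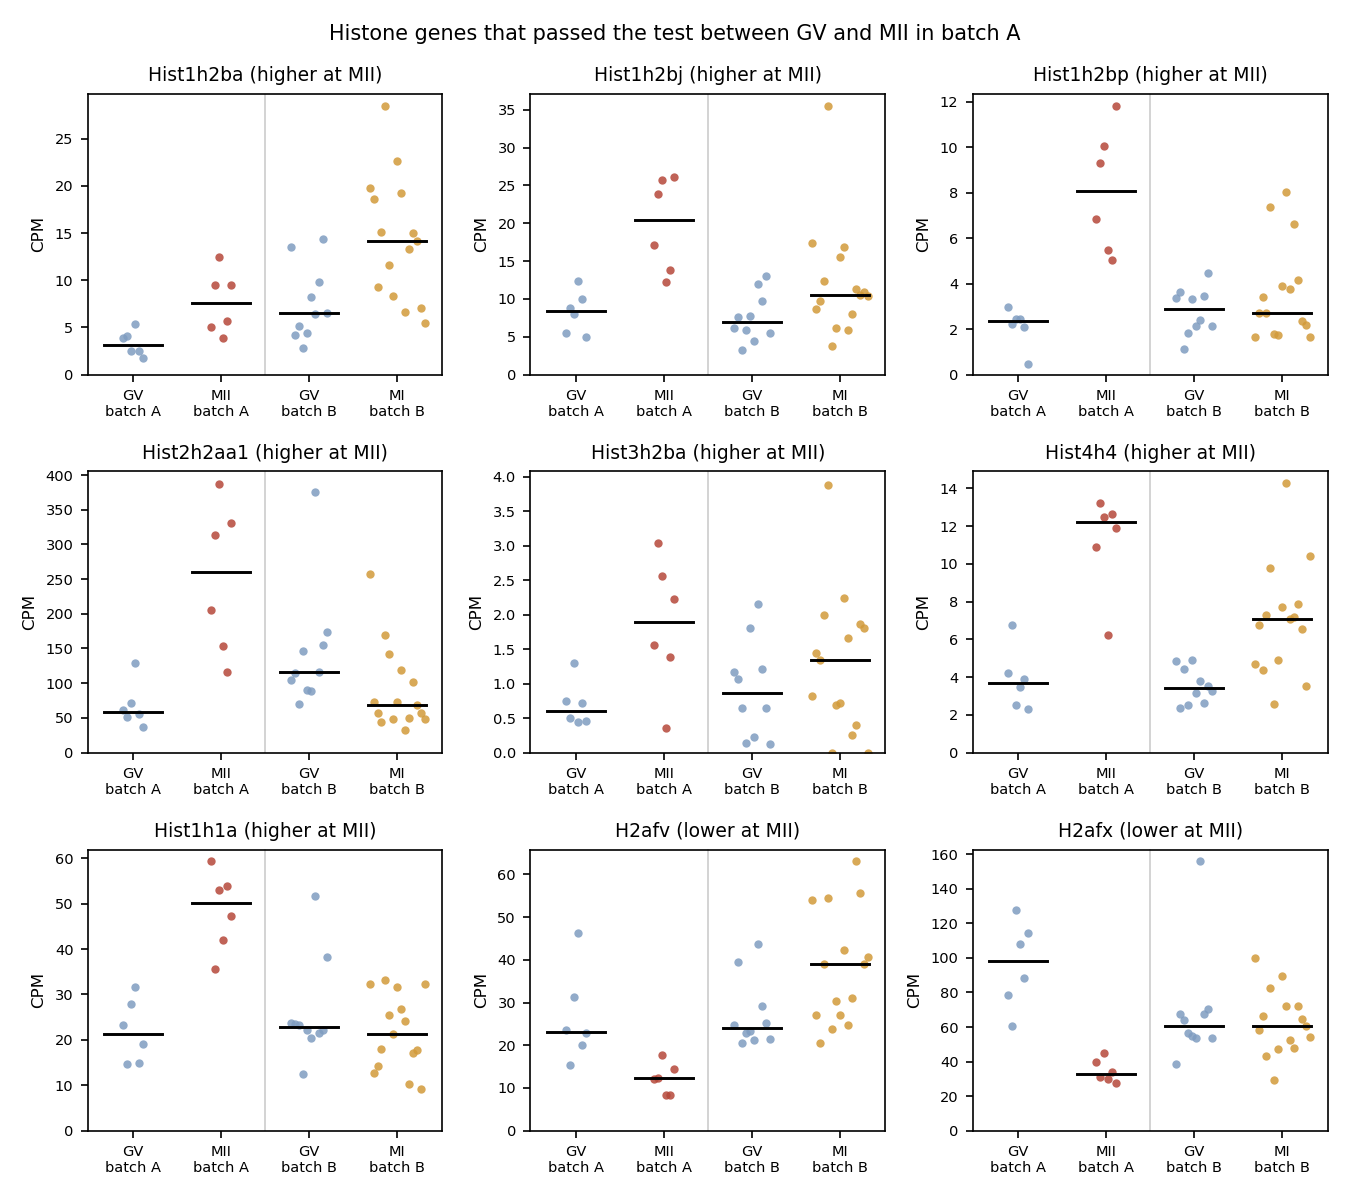
CPM in each oocyte (points, with the median as a bar) of the 9 histone genes called between GV and MII in batch A, with GV and MI oocytes of batch B beside them on the same axis, which starts at 0. In batch A the ranges of Hist1h2bp, Hist1h1a and H2afx do not overlap, and under spike-in scaling the 9 genes kept their direction while Hist1h2ba, Hist1h2bj, Hist3h2ba, Hist4h4 and Hist1h1a were no longer called.

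Scaling to the spike-ins changed many calls and was possible in batch A alone, where oocytes had 44665 to 143061 spike-in counts, beside 0 to 32 in batch B. Under it 131 of 12929 genes were called higher and 3788 lower. Of the 7 histone genes called higher, 2 kept the call, Hist2h2aa1 at 1.21 and Hist1h2bp at 1.16. Hist4h4 was at 0.80, Hist3h2ba at 0.61, Hist1h2bj at 0.57, Hist1h2ba at 0.50 and Hist1h1a at 0.44. Among RNA copied from a poly(A) tail these were therefore higher relative to other messages, while per spike-in count their increase did not pass the test. Tails were not measured, so the amount of a message and its capture by the tail cannot be told apart. Called lower under spike-in scaling were 7 members, namely H2afx at −2.21, H2afv at −1.81, H1fx at −1.91, H2afy2 at −1.60, H2afz at −1.20, Hist1h4i at −1.10 and H2afy at −1.09. As a share of the 47 tested this is lower than the share of all genes called lower on that scale.

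MI oocytes were compared with GV oocytes of batch B, which covers the first part of maturation, in culture. The filter was passed by 53 members. Called by edgeR were 0 higher, where 0.0886% of 12419 genes tested were called higher, and 0 lower, where 0.0322% were called lower. The first of these shares stands for 11 genes, which became 33 without MI oocytes 4, 8 and 9, 107 by DESeq2, and from 0 (without GV oocyte 9 or MI oocyte 7) to 75 (without MI oocyte 9) as each oocyte was left out, with 0 members called in each. At an unadjusted p under 0.05 there were 17 members (14 canonical core, 2 variant core and 1 other linker) of 53, beside 1371 of 12419 genes, and DESeq2 called 0, as did edgeR with HTSeq counts. The median log2 fold change of the members was −0.20, with 16 positive and 37 negative, beside 0.018 over all genes, and it was −0.41 with HTSeq counts. Without MI oocytes 4, 8 and 9 it was −0.28, and −0.35 with HTSeq counts, with 0 members called in each fit. No member had MI oocytes all above or all below GV oocytes, as was so for 0% of all genes tested in each direction.

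The smallest adjusted p belonged to Hist1h4a. Its CPM was 125, 167 and 238 in GV and 39.2, 102 and 188 in MI. Of 15 MI oocytes, 12 lay below every GV oocyte. The log2 fold change of −0.76 had an edgeR adjusted p of 0.0499 but a fold under 2, and HTSeq counts of this gene were 0.263 of its RSEM counts. Over the alternatives with a test of this gene the adjusted p ranged from 0.00352 with DESeq2 to 0.509 with HTSeq counts without MI oocytes 4, 8 and 9, and it was 0.32 with HTSeq counts from all oocytes. Hist1h4c had 138, 224 and 299 CPM in GV and 44.5, 154 and 305 in MI. Of 15 MI oocytes, 14 were below the GV median, with a log2 fold change of −0.61 and an edgeR adjusted p of 0.192. Hist4h4 had 2.38, 3.41 and 4.88 CPM in GV and 2.59, 7.07 and 14.3 in MI. Of 15 MI oocytes, 10 were above every GV oocyte, yet its log2 fold change of 0.97 had an edgeR adjusted p of 0.133. Hist1h2ba had 2.80, 6.48 and 14.4 CPM in GV and 5.49, 14.1 and 28.5 in MI, overlapping, with a log2 fold change of 0.93 and an edgeR adjusted p of 0.162. By DESeq2 the adjusted p was 0.0184 for Hist4h4 and 0.0496 for Hist1h2ba. The log2 fold changes there were 0.97 and 0.92, under the threshold. With HTSeq counts the edgeR adjusted p was 0.582 and 0.399.

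Linker and variant genes of batch B gave no calls. H1foo had 949, 1549 and 1972 CPM in GV and 688, 1136 and 1446 in MI. Every MI oocyte was below the GV median, and the ranges overlapped. Its log2 fold change was −0.40 with an edgeR adjusted p of 0.208. H3f3b had 793, 986 and 1640 CPM in GV and 754, 935 and 1106 in MI, and H3f3a had 78.6, 133 and 204 in GV and 37.8, 92.4 and 142 in MI. Both overlapped, with log2 fold changes of −0.17 and −0.48 and edgeR adjusted p of 0.594 and 0.238. H2afx, at 38.4, 60.3 and 156 CPM in GV and 29.2, 60.5 and 99.8 in MI, had nearly equal medians. H2afv had 20.6, 24.0 and 43.8 CPM in GV and 20.5, 38.9 and 63.1 in MI, with 13 of 15 MI oocytes above the GV median and a log2 fold change of 0.49 at an edgeR adjusted p of 0.283. H2afz, at medians of 13.5 in GV and 8.78 in MI, had a log2 fold change of −0.43.

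The change at MII in batch A was then set against the change at MI in batch B as a tested difference, with batches that share no GV oocytes. Stage, batch and place of maturation cannot be told apart in it. The filter over all groups was passed by 60 members. The difference was called higher by edgeR for 6 members, where 2.01% of 15083 genes tested were called higher, and lower for 2, where 2.02% were called lower. Without MII oocyte 1 the members called were 6 higher and 2 lower, and 149 of 15341 genes were called higher in place of 303. Its median was 0.45 on the log2 scale, with 50 positive and 10 negative, beside 0.043 over all genes, and it was 0.86 with HTSeq counts and 0.69 with these and without MI oocytes 4, 8 and 9. Higher were Hist2h2aa1 (2.66), Hist1h4a (1.72), Hist1h3f (1.53), Hist1h1a (1.47), Hist1h2bk (1.43) and Hist1h4c (1.43). Lower were H2afv (−1.54) and H2afx (−1.29). The edgeR adjusted p ranged from 0.000641 for Hist2h2aa1 to 0.0426 for Hist1h4c, which was not called with HTSeq counts once MI oocytes 4, 8 and 9 were left out (1.56), an alternative chosen after seeing the data. Hist2h2aa1, with no HTSeq count, could not be tested there. No spike-in scaling of this difference was possible, because batch B had almost no spike-in counts.

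H1foo and H3f3b had differences of 0.76 and 0.73 with edgeR adjusted p of 0.0291 and 0.0295, under the fold threshold. Hist4h4 and Hist1h2ba, called in batch A and not in batch B, had differences of 0.63 and 0.36 with edgeR adjusted p of 0.467 and 0.783, so their changes were not shown to differ between the comparisons.

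Summed by class, canonical core genes had 192, 417 and 561 CPM as lowest, median and highest in GV and 429, 773 and 1124 in MII of batch A. In batch B they had 636, 961 and 1498 in GV and 333, 643 and 1306 in MI. The stages of both batches overlapped. The log2 ratio of the means was 0.91 in batch A, which became 0.15 per spike-in count, and −0.44 in batch B. With HTSeq counts, of which Hist2h2aa1 had none, it was 0.63 in batch A and −0.62 in batch B. Mean CPM of the class was 407 in GV and 763 in MII of batch A, and Hist2h2aa1 alone had 67.5 and 251 of these. Clustered linker genes had 19.0, 26.0 and 36.2 CPM in GV and 41.7, 56.4 and 69.5 in MII, and 15.2, 26.3 and 57.7 in GV and 11.1, 25.03 and 45.8 in MI. Their MII oocytes were all above the GV oocytes of batch A, with a log2 ratio of 1.03 that became 0.31 per spike-in count, and −0.22 in batch B. Hist1h1a, already called on its own, held 86.4% of the CPM of this class.

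Other linker genes, H1foo among them, had log2 ratios of 0.28 in batch A, which turned to −0.41 per spike-in count, and −0.39 in batch B. Variant core genes had 0.31 in batch A, which turned to −0.40 per spike-in count, and −0.18 in batch B. H3f3b held 73.4% of the CPM of variant core genes. Gene by gene, their median log2 fold change in batch A was −0.41, with 3 positive and 5 negative. The stages overlapped for both classes in both batches. All 82 genes together had mean CPM of 4039 in GV and 5235 in MII of batch A, with a log2 ratio of 0.37 that turned to −0.33 per spike-in count, and of 3851 in GV and 3069 in MI of batch B.

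**Figure D3:**
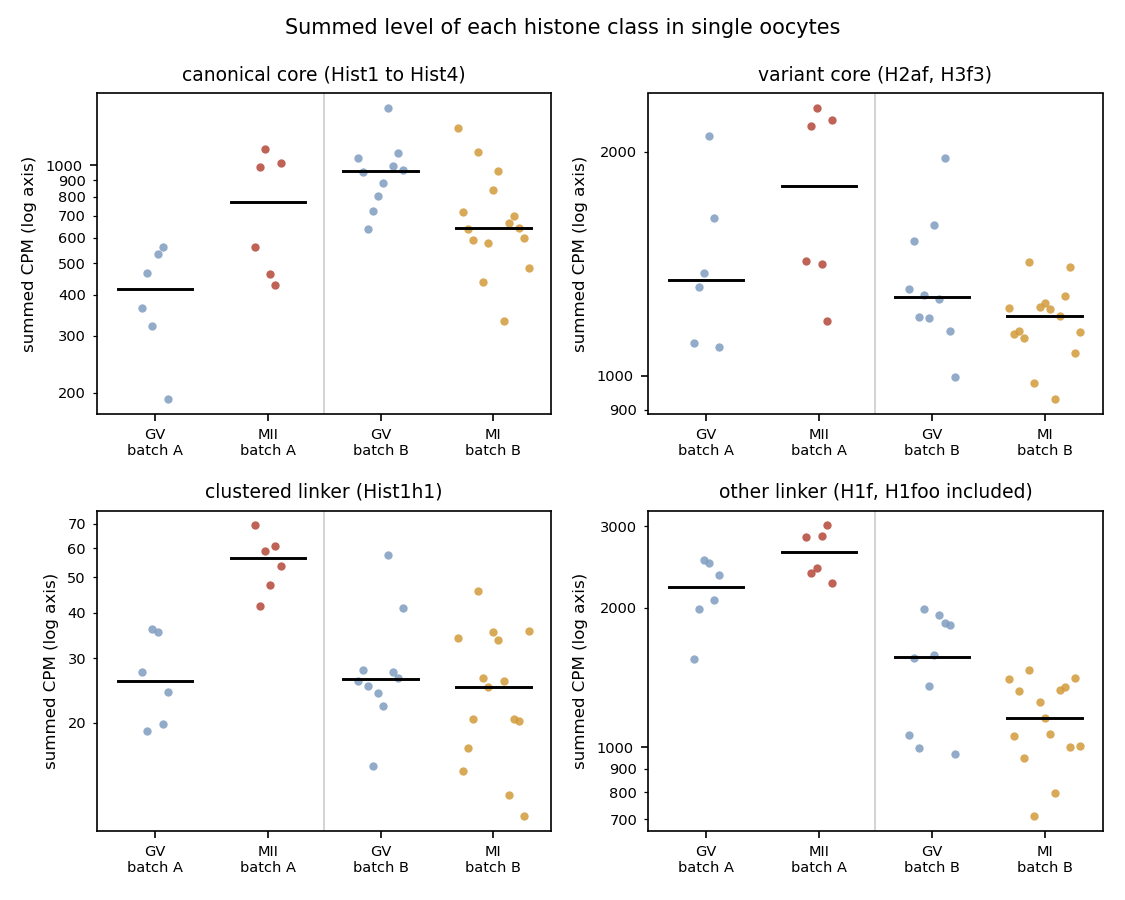
Summed CPM of each histone class in each oocyte (points, with the median as a bar) on a log axis, by stage and batch. Only the clustered linker class, of which Hist1h1a holds 86.4% of CPM, has stages that do not overlap, in batch A. Per spike-in count the log2 ratio of MII to GV there is 0.31 for that class and 0.15 for canonical core genes. It is −0.41 for other linker and −0.40 for variant core genes, and H3f3b holds 73.4% of variant core CPM.

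Shares within a family do not depend on library scaling. Variant genes held 40.7% to 61.1% of H2A TPM in GV, with a median of 44.9%, and 10.6% to 21.5% in MII of batch A, with a median of 14.1%. All MII oocytes were below all GV oocytes. With both Hist2h2aa copies left out, the medians were 73.7% and 58.4% and the stages overlapped, so the size of this shift rests largely on reads assigned to Hist2h2aa1. In batch B the median variant share of H2A was 18.5% in GV and 24.4% in MI, overlapping. Within the H3f3 pair, H3f3b held a mean of 59.2% and 63.7% in GV and MII of batch A and of 84.2% and 87.5% in GV and MI of batch B. Hist1h2ba held a mean of 5.81% and 8.12% of H2B TPM in batch A and of 8.11% and 17.3% in batch B, and Hist1h4c held 30.8%, 31.2%, 38.1% and 37.2% of H4 TPM in the same order, with overlap in each batch.

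Transcript shares were compared for 7 members with several transcripts and at least 100 mean counts in both stages. In batch A, H2afj-201 held 84.4% to 92.9% of its gene's counts in GV and 92.8% to 100% in MII, and H2afv-202 held 58.9% to 81.3% in GV and 79.7% to 92.0% in MII. For both, the MII range lay higher and overlapped the GV range at its edge. The two-sided exact permutation test gave p of 0.00433 for each, with an adjusted p of 0.0152 over the 7 genes. Hist1h2be-202, a long H2B transcript of 2480 bases, is of a gene with a mean of 157 counts by RSEM and 4.54 by HTSeq, so its share rests on reads that HTSeq mostly did not assign to the gene. It held a mean of 59.9% in GV and 44.7% in MII, with a p of 0.00866 and an adjusted p of 0.0202 by the exact test. In batch B it held 56.4% in GV and 41.9% in MI, with a p of 0.00444 and an adjusted p of 0.0311 by a permutation test. The other 4 genes of batch A and 6 of batch B did not pass, with H3f3b-202 at 65.3% and 65.9% in batch A.

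Genes that supply histones were read from a list fixed by function. Of 21 genes for histone message processing and cluster transcription, all tested, 1 was called higher and 2 lower at MII, beside 2.15% and 6.32% of all genes tested, with a median log2 fold change of 0.0043. Of 33 chaperone and exchange genes, 32 were tested, of which 1 was called lower, with a median of 0.26, and 0 were called higher by edgeR and by DESeq2, with 16 at an unadjusted p under 0.05, 12 of them positive, beside 4441 of 12929 genes in either direction. These counts are small, and for the processing genes they lie near the shares of all genes. In batch B edgeR and DESeq2 called 0 genes of either list, with 0 of 21 processing genes and 2 of 33 chaperone genes at an unadjusted p under 0.05. Slbp, whose protein binds the histone stem-loop, had 901, 1188 and 1474 CPM in GV and 1053, 1453 and 2049 in MII. These ranges overlapped, with a log2 fold change of 0.29 that turned to −0.43 under spike-in scaling, and in batch B its mean was 349 in GV and 350 in MI.

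The gene of this group with the smallest adjusted p was Npm2, for nucleoplasmin, an oocyte chaperone of H2A and H2B. Its CPM was 354, 383 and 508 in GV and 153, 177 and 197 in MII. All MII oocytes were below all GV oocytes. The log2 fold change was −1.24 with an edgeR adjusted p of 1.46e-05, and in batch B mean CPM was 215 in GV and 214 in MI. Zfp473, a part of the histone processing complex, and Nelfe, of the factor that pauses polymerase, had log2 fold changes of −1.01 and −1.02 with edgeR adjusted p of 0.00357 and 0.0048. Both stand at the fold threshold, and Zfp473 kept the call in 6 and Nelfe in 7 of 12 fits that each left out an oocyte. Sympk, a scaffold of the cleavage complex, had a log2 fold change of 1.02 with an edgeR adjusted p of 0.0283, and without MII oocyte 1, at 76.4 CPM beside 38.1 in the next, it was 0.60 and not called, as it was not with HTSeq counts (0.41). Npat, Hira and Asf1a were not called, at 0.41, 0.26 and −0.21, and the first pair turned to −0.34 and −0.58 under spike-in scaling.

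The cells carried oocyte markers, and no marker of stage was tested. All 12 oocyte markers were tested in both batches, and their summed CPM had medians of 15003 in GV and 10186 in MII of batch A and of 5366 in GV and 4713 in MI of batch B. Called lower at MII were 4 of them, Zp1, Zp2, Zp3 and Ooep, the last in 8 of 12 fits that each left out an oocyte. The 16 cumulus and granulosa markers had a summed median of 52.8, 39.8, 38.2 and 36.9 CPM in the same order, Nr5a2 was the most abundant, and none was at 0 in all oocytes. Of these, 3 were tested in batch A, with 0 called by edgeR or DESeq2 and 0 at an unadjusted p under 0.05. There 5 of 6 MII oocytes lay below every GV oocyte for Ccnd2, and 4 for Inha and for Cyp11a1. For Hsd17b1, 4 of 6 lay above every GV oocyte. In batch B 6 were tested, with 2 called lower, Gja1 and Ccnd2, where 4 of all 12419 genes were called lower. Their median CPM was 2.10 and 3.10 in GV and 0.166 and 0.0432 in MI, with 11 of 15 MI oocytes below every GV oocyte for each. Inhba, which did not pass the filter, had medians of 1.14 and 0.173, with 14 of 15 so placed. Nr5a2 and Has2 went the other way, with 12 and 11 of 15 MI oocytes above the GV median. Above every GV oocyte were 6 for Nr5a2 and 4 for Has2. Of 3 markers at an unadjusted edgeR p under 0.05 in batch B, 1 was higher. The median log2 fold change of the 6 tested there was −0.085. Granulosa markers thus moved in both directions beside the histone values of each batch. Those named as lower in batch B were at low levels. The part of these markers in the histone values was not tested.

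Of 8 blood and immune markers, with Hbb-bs most abundant, none passed the filter in batch A, and 2 were tested in batch B, with 0 called by edgeR or DESeq2 and 1 at an unadjusted p under 0.05. Their summed CPM was at most 0.890 in GV of batch A, 8.70 in GV of batch B and 5.88 in MI, and it reached 16.6 in MII oocyte 1, which also had counts for 29816 genes beside 19574 to 22598 in the other MII oocytes. Without MII oocyte 1 the calls between MII and GV were the same for 8 of the 9 members, and Hist3h2ba was not called, at 1.44 with an edgeR adjusted p of 0.0628. Of 5 proliferation genes, all tested, Tyms was called lower at MII and no other was called in either batch, with 3 in batch A and 1 in batch B at an unadjusted p under 0.05, and DESeq2 called 1 lower in batch A and 0 in batch B.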

How the data were processed

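The oocytes, their groups and the measured genes are those given above. The authors deposited HTSeq counts for genes, and RSEM expected counts for genes and for transcripts, made, by the submitters' notes, with Trim Galore 0.6.4, STAR 2.7.6a, HTSeq 0.12.4 and RSEM 1.3.1. Rounded RSEM expected counts were fitted over all genes with edgeR 4.0.16 (TMM, filterByExpr, quasi-likelihood, Benjamini-Hochberg), in R 4.3.3. CPM used TMM library sizes within batch, and TPM used annotated lengths from GENCODE M21, which matched 54723 of 54752 genes and 138789 of 138835 transcripts. The alternatives were HTSeq counts, no filter on low counts, RLE scaling, DESeq2 1.42.0, no fold threshold, replicate numbers as a block, ERCC scaling, each oocyte left out, and MI oocytes 4, 8 and 9 left out, the last also with HTSeq counts, chosen after seeing the data. Transcript shares used scipy 1.17.1, with all assignments in batch A and 100000 resamples in batch B. The members and lists were chosen with earlier results of these data known.

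Named were the variant core, H1f and Hist1h1 members, Hist1h2aa and Hist1h2ba with a mean of at least 10 counts, every member called, the 10 canonical core members with the highest mean CPM, supply genes called, and Slbp, Npat, Hira, Asf1a and Npm2. Beyond this rule, H2afb2, H2afb3, Hist1h2be, the Hist2h2aa1 copies and the markers called were named after their values were seen.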

Additional observations from a re-analysis of the deposited data

Results flagged for a closer look

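Single oocytes were looked at in 63 sets of values, each a class sum, a called gene, or H1foo, H3f3a, H3f3b or H2afz, in a group of 10 oocytes or fewer. An oocyte stood far from the rest of its group in 8 of them, and chance alone would give this in about 1 of 20 sets of normally distributed values. Whether CPM is so distributed was not checked, and flagged sets overlap, since the canonical core sum includes Hist2h2aa1 and Hist1h3f. GV oocyte 7 of batch B was high in 4 of these, with 1498.2 summed CPM of canonical core genes where the others had 635.74 to 1093, 376.24 CPM of Hist2h2aa1 (others 70.586 to 173.25), 83.72 of Hist1h3f (others 22.047 to 54.706) and 156.44 of H2afx (others 38.44 to 70.336). In batch A, GV oocyte 4 was high for Hist2h2aa1 at 128.51 CPM (others 37.276 to 71.367) and GV oocyte 3 for Hist3h2ba at 1.2976 (others 0.44506 to 0.7418). GV oocyte 6 was low for Hist1h2bp at 0.46402 CPM (others 2.0774 to 2.9672), and MII oocyte 4 was low for Hist4h4 at 6.2057 (others 10.874 to 13.231).

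The change at MII in batch A differed from the change at MI in batch B, by a test of the difference itself in edgeR over all genes, at an adjusted p under 0.05 and a fold over 2 for 8 members, 6 higher and 2 lower, beside 2.01% and 2.02% of all genes, while 10 members had an adjusted p under 0.05 at any fold. On the log2 scale the difference was 2.66 for Hist2h2aa1, with an adjusted p of 0.000641. It was 1.72 for Hist1h4a (adjusted p 0.00817), 1.53 for Hist1h3f (adjusted p 0.0164), 1.47 for Hist1h1a (adjusted p 0.00928), 1.43 for Hist1h2bk (adjusted p 0.0177) and 1.43 for Hist1h4c (adjusted p 0.0426, or 0.0723 with HTSeq counts without MI oocytes 4, 8 and 9). It was −1.54 for H2afv (adjusted p 0.00379) and −1.29 for H2afx (adjusted p 0.00787). The comparisons differ in stage, in culture against the animal and in batch, which cannot be told apart.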

How the results depend on the processing

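Between MII and GV in batch A, 7 members were called higher and 2 lower, and the counts higher were 7 without a filter on low counts (6 of them the same), 7 with RLE scaling, 7 with DESeq2, 8 without a fold threshold, 5 with replicate numbers as a block, 3 with HTSeq counts and 2 with ERCC scaling. Over all genes, 278 called higher became 895, 283, 273, 1172, 218, 101 and 131 under these alternatives in the same order, so the background moved too. Leaving out each oocyte gave 6 to 9 higher and 1 to 3 lower. Lower counts were 2 or 3, except 7 with ERCC scaling. The ERCC counts themselves shift the median of all genes, and Hist2h2aa1 and Hist1h2bp had too few HTSeq counts to be tested. Other causes were not tested. In batch B counts were 0 under each alternative and with each oocyte left out, except 1 lower (Hist1h4a) without a fold threshold. The difference of the comparisons gave 4 to 8 higher and 2 lower. Per ERCC count the class log2 ratios in batch A were 0.15 (canonical core), 0.31 (clustered linker), −0.41 (other linker) and −0.40 (variant core).

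Directions turned in batch A with ERCC scaling for Hist1h2aa (−0.67), Hist1h1c (−0.53), Hist1h1d (−0.37), H1f0 (−0.51), H1foo (−0.41), H2afj (−0.62), H3f3a (−0.43), H3f3b (−0.21), Hist1h4c (−0.0672), Hist1h3a (−0.29), Slbp (−0.43), Npat (−0.34) and Hira (−0.58), and with HTSeq counts for Hist1h2aa (−0.12), H2afj (−0.0397) and Hira (−0.42). None of these was called before or after. In batch B they turned with HTSeq counts for Hist1h1d (−0.0514), Hist2h3c2 (−1.22) and Sympk (−0.65), without MI oocytes 4, 8 and 9 for Hist1h1c (0.0913), Hist1h1d (−0.0925), Zfp473 (0.0344) and Npm2 (0.0483), and with both for Hist1h1d (−0.10), Hist2h3c2 (−0.90), Slbp (−0.0178), Zfp473 (0.0516), Sympk (−0.63) and Npm2 (0.0596). Slbp turned without a filter (−0.0045), and Npat (−0.0381) and Asf1a (−0.0276) with the block. Calls ended with the block for Hist1h2ba (1.19), Hist3h2ba (1.31), Sympk (0.84) and Nelfe (−0.95), and without a filter for Sympk (0.96) too. Replicate numbers do not pair oocytes, so the block is an arbitrary grouping. The cause was not tested.

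Depth limits the members with few counts: 55 of 82 had a mean of at least 10 counts, and a change in the others would hardly be detectable at this depth.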
